A study of Mus musculus with 3 samples.

Results

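The Tudor domain genes Tdrd3 and Tdrd7 were each targeted with a pool of siRNAs in mouse embryonic fibroblasts (MEFs) that were being reprogrammed to pluripotency. The libraries were those whose column names read siTdrd3 and siTdrd7, with 3 replicates each, which made 6 of the 127 libraries used. The study asked which chromatin and transcription regulators alter the early phase of reprogramming. All cells were wild-type MEFs of the BL6 strain that had received lentiviruses with a doxycycline-inducible cassette of Oct4, Sox2, Klf4 and c-Myc (OSKM) and with rtTA, the activator that doxycycline switches on, and were reprogrammed at passage 2. Transfected cells received 40 nM of pooled siRNA with a lipid reagent and were induced with doxycycline 24 hours later, in medium with chiron, an Alk5 inhibitor, ascorbic acid and LIF. RNA was taken in bulk at day 6 and counted by CEL-Seq2, which tags the 3′ ends of transcripts with molecular identifiers (UMIs).

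The controls were 3 libraries with a non-targeting siRNA (nt) and 5 libraries labelled Mock. Another 31 siRNA conditions with 92 libraries and an untransfected time course of 21 libraries, from Day00 to Day06, served as reference. The labels describe the starting cells as fibroblasts, and fibroblast genes such as Col1a1, Col1a2, Vim and Dcn were counted in each of the 6 libraries. The labels do not say whether the replicates came from separate cell preparations, so the p-values measure only the spread between these libraries, part of which may be technical.

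Tudor domains are small folds that bind methylated arginine or lysine in other proteins. TDRD3 is found in the nucleus and the cytoplasm, where it joins the topoisomerase TOP3B and the RNA-binding protein FMRP, recognises methylarginine on histones and RNA polymerase II, and enters stress granules. TDRD7 is a component of RNA granules, best known from germ cells, where Tudor proteins organise the piRNA pathway, and from the lens of the eye.

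The siRNA guides define what each pool could pair with. The sequences were read from the siRNA table of the study, which gave 2 siRNAs of each pool, and the third was not used here. Each is written 5′ to 3′, and the capitals mark the seed, guide bases 2 to 8, through which a guide can also pair with other messages.
Tdrd3 siRNA 170909: aCUUAAGAgcaggaauccgtt
Tdrd3 siRNA 170910: uGUCUUUCuucgaucaagctc
Tdrd7 siRNA 166249: aUUUUCCUuuuagaggucctc
Tdrd7 siRNA 90903: aGCAUAUUcuuuucaaucctc

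Both Tdrd3 guides matched the coding sequence, in exon 5 at chr14:87474756-87474774 and in exon 7 at chr14:87480769-87480787 (GRCm38, plus strand). The Tdrd7 guide 166249 matched the coding sequence in exon 3 at chr4:45989142-45989160. The Tdrd7 guide 90903 matched the 3′ UTR in exon 17 at chr4:46034630-46034648, 113 bases from the end of the transcript. Each Tdrd3 guide matched 5 of the 6 annotated Tdrd3 transcripts. Of the 5 annotated Tdrd7 transcripts, guide 166249 matched 2 and guide 90903 matched 3. None of the 4 guides matched a second annotated gene over its 19 target bases.

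The targets themselves were close to the limit of detection. Tdrd3 (ENSMUSG00000022019, chr14:87416639-87545504) had counts of 0, 0 and 1 in siTdrd3 replicates 1 to 3 and of 1, 1 and 0 in nt, with 0 counts in all 5 Mock libraries and 1, 1 and 2 in siTdrd7. The ratio of siTdrd3 to nt was 0.548, with an exact 95% interval of 0.00929 to 10.5 and an exact two-sided p of 1. Without replicate 1 the ratio was 1.09, without replicate 2 it was also above 1, and without replicate 3 it was 0. The other 103 transfected libraries held 72 Tdrd3 counts, and the ratio of siTdrd3 to these was 0.429 (0.0107 to 2.47, exact p = 0.731). Tdrd7 (ENSMUSG00000035517, chr4:45965334-46034761) had 0 counts in each of the siTdrd7, siTdrd3, nt and Mock libraries and 11 counts in all 127 libraries used. At the rate of the other transfected libraries, 0.306 Tdrd7 counts would have been found in the siTdrd7 libraries, and a count of 0 there allowed up to 10.5 CPM, the count scaled to library size, here to the total counts. A reduction of either target was not detectable at this depth, and the names siTdrd3 and siTdrd7 rest on the column names alone. Intervals and floors cover counting error only.

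Total counts were 67191, 70533 and 134630 in siTdrd3, 65366, 72667 and 147851 in siTdrd7, 75100, 80136 and 143156 in nt, and 38925 to 83089 in Mock. After a filter on low counts 3013 genes were tested, and levels are given as CPM of the scaled total of these genes. On this scale 1 count was worth up to 18.6 CPM in siTdrd3 and up to 19.5 CPM in siTdrd7. Bulk RNA cannot tell fewer cells that express a gene from less of its RNA per cell.

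In siTdrd3 against nt, 26 genes differed by edgeR's quasi-likelihood test at an adjusted p under 0.05, which was 0.863% of the genes tested. Of these, 12 were higher and 14 lower. The lower genes included Ncl, Serbp1, Atrx, Bclaf1, the noncoding RNA Malat1, Mpp5, Farsb, Amd2, Pds5a and 4 pseudogenes that resemble Npm1. Higher genes included Rplp2, the mitochondrial gene mt-Co3 and the pseudogenes Gm11956, Gm13408, Gm7600 and Gm5586. The count was 20, 10 and 9 without replicate 1, 2 and 3, and 306 genes had an unadjusted p under 0.05. The calls of Gm11956, Gm13408 and the 4 Npm1-like pseudogenes held whichever replicate was left out, and 7 calls held in none of these fits, those of Ncl, Serbp1, Amd2, Gm12020, Pds5a, Snrpb2 and RP23-269H21.1. The calls of Atrx, Rplp2, mt-Co3, Gm28437, Gm5586, Oaz1, Fth1 and Mpp5 held only without replicate 1, that of Farsb only without replicate 2 and that of Malat1 only without replicate 3, while Bclaf1 lost its call without replicate 2 and Gm7600 without replicate 3.

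Malat1, a long noncoding RNA of nuclear speckles (chr19:5795690-5802672), had 1190, 1250 and 1020 CPM in siTdrd3, 2250, 2290 and 1510 in nt, and 1610 to 2210 in Mock. All siTdrd3 libraries lay below all nt and Mock libraries, and the siTdrd3 mean was the lowest of the 33 siRNA conditions. The log2 difference was -0.79 ± 0.19 (SE) against nt (adjusted p = 0.011, edgeR), -0.71 ± 0.18 against Mock (0.0243) and -0.56 ± 0.15 against the mean of the other siRNA conditions (0.0241). The call against nt held without replicate 3 (adjusted p = 0.0489), and the adjusted p was 0.103 without replicate 1 and 0.19 without replicate 2. The calls against Mock and against the other conditions were lost whichever replicate was left out, with adjusted p of 0.0621 and 0.149 or more.

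Ncl, which encodes the nucleolar protein nucleolin (chr1:86344719-86359400), had 1020, 1160 and 1020 CPM in siTdrd3 and 1570, 1600 and 1810 in nt, with no overlap. The log2 difference was -0.65 ± 0.17 (adjusted p = 0.0179). Mock, however, lay at 927 to 1220 CPM, so that siTdrd3 and Mock differed by -0.01 ± 0.17 (adjusted p = 0.998) while Mock itself was lower than nt by -0.65 ± 0.16 (adjusted p = 0.00723). Leaving out any replicate raised the adjusted p of Ncl against nt to 0.125 or more, and that of Serbp1 to 0.128 or more.

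Serbp1, an mRNA-binding protein of ribosomes and a listed TDRD3 partner (chr6:67238176-67297736), had 1240, 1370 and 1530 CPM in siTdrd3, 2000, 2320 and 2120 in nt, and 1490 to 1890 in Mock. Its siTdrd3 levels lay below all nt levels and overlapped those of Mock. The log2 difference was -0.62 ± 0.16 against nt (adjusted p = 0.02) and -0.29 ± 0.15 against Mock (0.684). Atrx, a chromatin remodeller linked to repeats and telomeres, had 427, 369 and 320 CPM in siTdrd3 against 583, 882 and 686 in nt, a difference of -0.97 ± 0.24 (adjusted p = 0.0112; 0.316 without replicate 2 and 0.341 without replicate 3). Its Mock levels were 288 to 642 CPM and overlapped those of siTdrd3. Bclaf1, a nuclear RNA-processing factor, differed by -0.88 ± 0.21 (adjusted p = 0.00817) and by -0.21 ± 0.22 against Mock (0.865). Malat1, Ncl, Serbp1 and Bclaf1 were called but fell outside the 10 largest changes in their direction and were chosen after their values were seen.

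**Figure D1:**
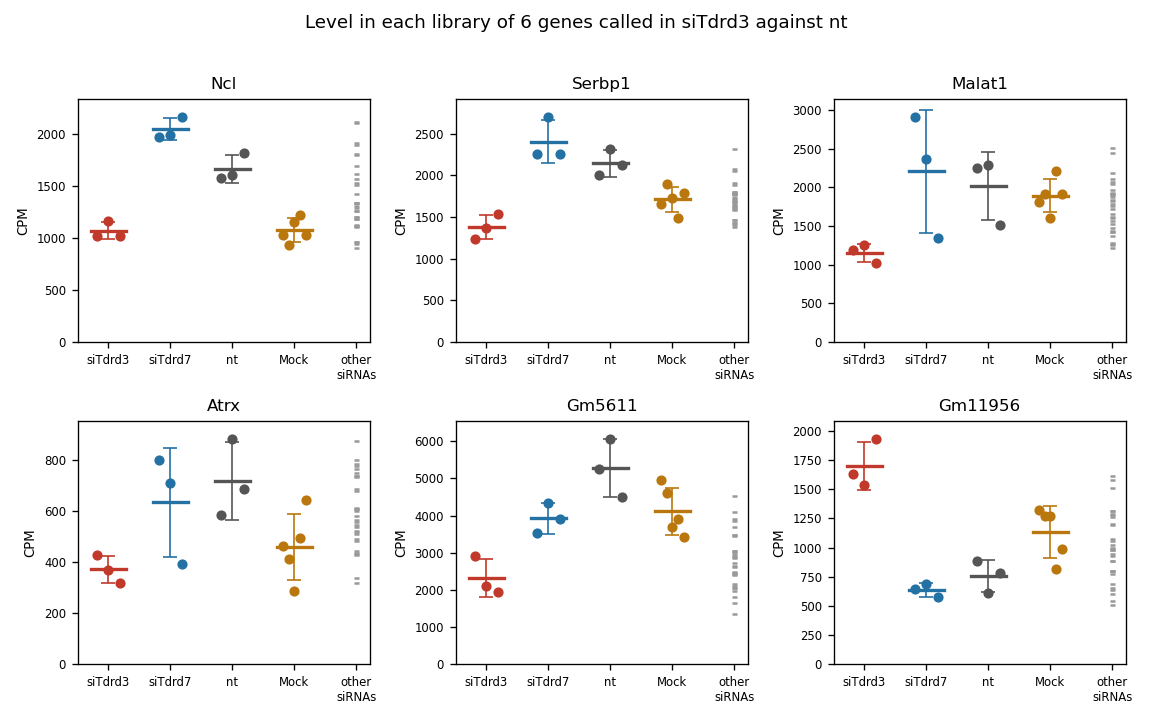
CPM of 6 genes called in siTdrd3 against nt, as a point for each siTdrd3, siTdrd7, nt and Mock library with the mean (bar) and SD (whiskers), and as a dash for the mean of each of the other 31 siRNA conditions. The siTdrd3 libraries lie below all nt libraries for Ncl, Serbp1, Malat1, Atrx and Gm5611 and above them for Gm11956, and Ncl in Mock lies at 927 to 1220 CPM, near siTdrd3.

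Low-count genes gave the largest fitted changes. Mpp5, which encodes the polarity protein PALS1 of tight junctions (chr12:78748907-78840714), had 0 counts in each siTdrd3 library, 5, 8 and 8 counts in nt, and 7, 2 and 11 in siTdrd7. The 5 Mock libraries held 0, 0, 3, 3 and 4 counts. The group at 0 was set to 3 counts in all and the other group was left at its count. On this basis Mpp5 was 6.18-fold lower in siTdrd3 than in nt (adjusted p = 0.00126). It was 6.65-fold lower than in siTdrd7 (0.00106) and 3.5-fold lower than in Mock (0.0487). Such folds, here and below, are not lower bounds, since the error of the other count and the spread between replicates are left out. No other siRNA condition had a mean of 0, the lowest being 13.4 CPM. Its adjusted p against nt was 0.0127 without replicate 1 and 0.0892 without replicate 2, and it did not pass the filter without replicate 3.

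Psma2, a proteasome subunit, had 18.6, 52.7 and 54.9 CPM in siTdrd3 (10 counts in all), 99.9, 165 and 196 in nt and 103 to 346 in Mock, and its siTdrd3 mean was the lowest of the 33 conditions. The log2 difference was -1.82 ± 0.52 against nt, which missed the threshold (adjusted p = 0.0537), -2.05 ± 0.51 against Mock (0.0178) and -1.79 ± 0.42 against the other siRNA conditions (0.00713), a call that held only without replicate 2. Pds5a, a cohesin regulator, had 2, 2 and 3 counts in siTdrd3 and 6, 9 and 20 in nt (-2.06 ± 0.57, adjusted p = 0.0442; -1.36 ± 0.63 against Mock, 0.617). Farsb, a subunit of phenylalanyl-tRNA synthetase, differed from nt by -1.21 ± 0.33 (adjusted p = 0.0442), and its difference from Mock was 0.15 ± 0.41 (0.974). In Farsb, siTdrd3 replicate 2 with 316 CPM stood apart from replicates 1 and 3 with 37.1 and 119 CPM. Its difference from nt was -1.86 without replicate 2, -0.88 without replicate 1 (adjusted p = 0.353) and -1.04 without replicate 3 (0.596).

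The transcripts that carry a seed match were counted as a description. On the transcript strand, the 7 bases TCTTAAG, which pair with the seed of Tdrd3 siRNA 170909, stood in an annotated 3′ UTR of 16.9% of the 2401 tested genes with one, and of 4 of the 8 lower genes with one, namely Atrx, Mpp5, Ncl and Serbp1. The bases GAAAGAC, for siRNA 170910, stood in 13.1% of all and in 2 of the 8 lower genes, Ncl and Serbp1. Neither 7-mer stood in the 4 higher genes with an annotated 3′ UTR. Over all tested genes, the median log2 difference from nt was -0.04 with TCTTAAG and 0 without, and -0.08 with GAAAGAC and 0 without. The 3′ UTRs differ in length, and whether the guides act through these sites was not tested. For the Tdrd7 guides, AGGAAAA stood in 30.9% and AATATGC in 11.1% of the 2401 genes, and neither in the 3 genes lower in siTdrd7.

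Pseudogenes that resemble Npm1, the gene of nucleophosmin, were lower in siTdrd3. Gm5611 had 2920, 2110 and 1940 CPM in siTdrd3, 5260, 6060 and 4500 in nt and 3420 to 4950 in Mock, with no overlap between siTdrd3 and either control. The log2 differences from nt were -1.2 ± 0.19 for Gm5611 (adjusted p = 1.86e-06), -1.13 ± 0.19 for Gm17060 (7.18e-06), -1.02 ± 0.2 for Gm14776 (0.000357) and -0.94 ± 0.19 for Gm14681 (0.00054). All 4 were also lower than in Mock, by 0.7 to 0.79 on the log2 scale, and kept their calls against nt without each replicate. Against the other siRNA conditions none was called in siTdrd3 (-0.23 for Gm5611, adjusted p = 0.587), and nt itself stood above those conditions by 0.97 ± 0.12 (8.47e-11). Npm1 had 5550, 5480 and 6120 CPM in siTdrd3 and 5730, 6000 and 6980 in nt, a difference of -0.12 ± 0.14 (adjusted p = 0.844).

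These counts are uncertain as to their gene. Of the 31-base stretches in the last 500 bases of Gm14681 and Gm5611, 83.5% and 51.5% also stand in Npm1, so reads can fall to either, whereas Gm17060 and Gm14776 share 17.7% and 4.68%. The sum of Npm1, Gm5611 and Gm14681 was 8940 to 10200 CPM in siTdrd3, 11600 to 14300 in siTdrd7, 14200 to 14700 in nt and 9890 to 14600 in Mock. The siTdrd3 sums lay below those of nt and overlapped those of Mock. Gm12020, which shares 13.4% with Ncl, was lower than in nt by -1.35 ± 0.37 (adjusted p = 0.0381). Amd2, a copy of the polyamine enzyme gene Amd1 with 96.8% of its sequence shared, differed by -1.09 ± 0.29 (adjusted p = 0.0366). The sum of Amd1 and Amd2 had a mean of 382 CPM in siTdrd3, 773 in nt and 417 in Mock. Without 1 replicate the adjusted p was 0.147 or more for Gm12020 and 0.103 or more for Amd2.

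Among the genes that were higher in siTdrd3, the processed pseudogene Gm11956 (chr11:4230754-4231265) was the most clearly separated. It had 1630, 1540 and 1930 CPM in siTdrd3, 883, 613 and 784 in nt, 819 to 1320 in Mock and 644, 692 and 576 in siTdrd7, and no library of these groups reached the siTdrd3 range. The log2 differences were 1.18 ± 0.18 against nt (adjusted p = 4.24e-07), 0.62 ± 0.16 against Mock (0.0257) and 0.84 ± 0.12 against the other siRNA conditions (1.99e-08), whose highest mean was 1610 CPM. The call against nt held without each replicate, with adjusted p up to 0.00479, and that against Mock held only without replicate 1.

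Rplp2, a protein of the ribosomal stalk, had 780, 544 and 741 CPM in siTdrd3 and 566, 135 and 376 in nt, which overlapped. It differed from nt by 0.98 ± 0.22 (adjusted p = 0.00465) and from Mock by 0.54 ± 0.21 (0.446), and without replicate 2 and 3 the adjusted p against nt was 0.356 and 0.222. Rps3a1 itself was not called against nt (0.34 ± 0.18, 0.492). Gm13408, Gm7600 and Gm5586, which share sequence with Rps3a1 or with each other, differed from nt by 1.02, 0.93 and 0.76 and from Mock by -0.27, 0.08 and -0.13. The sum of Rps3a1 and these copies was 3680 to 5930 CPM in siTdrd3, 3600 to 6370 in Mock and 2290 to 3580 in nt, so that siTdrd3 and Mock overlapped and nt lay below both.

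The remaining higher genes were called against nt and not against Mock, and Fth1 was chosen after its values were seen. Snrpb2, a protein of the U2 spliceosomal particle, differed by 0.99 ± 0.27 (adjusted p = 0.034; 0.16 against Mock, 0.93). Oaz1, the antizyme that limits polyamine synthesis and shares 52% of its 3′ end with a pseudogene, differed by 0.99 ± 0.26 (0.0258; 0.25 against Mock, 0.845). Fth1, the heavy chain of ferritin, differed by 0.61 ± 0.17 (0.0466; 0.29 against Mock, 0.684). RP23-269H21.1 differed by 1.18 ± 0.31 (0.032; 0.87 against Mock, 0.228).

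In siTdrd7 against nt, 7 genes were called, 4 higher and 3 lower, which was 0.232% of the genes tested. H19, Gm26870, Gm28437 and mt-Co3 were higher, and Uqcrh, Nfatc3 and Wrb were lower. The count was 3, 1 and 4 without replicate 1, 2 and 3, with no call that held in all 3 of these fits, and 188 genes had an unadjusted p under 0.05.

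Uqcrh, the hinge subunit of respiratory complex III (chr4:116066965-116075071), had 312, 401 and 568 CPM in siTdrd7, 1230, 852 and 866 in nt, 873, 930 and 942 in siTdrd3 and 1040 to 1600 in Mock. The siTdrd7 libraries lay below every library of the other 3 groups. The log2 difference was -1.08 ± 0.23 against nt (adjusted p = 0.00333), -1.55 ± 0.22 against Mock (2.44e-08) and -0.97 ± 0.18 against the other siRNA conditions (7.46e-05), of which the lowest had a mean of 423 CPM. The adjusted p against nt was 0.518, 0.111 and 0.00791 without replicate 1, 2 and 3.

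H19, an imprinted long noncoding RNA of embryonic tissue (chr7:142575529-142578143), had 2790, 1580 and 960 CPM in siTdrd7 and 849, 1090 and 539 in nt. The third siTdrd7 replicate overlapped nt, and the Mock range of 568 to 1920 CPM overlapped both. The log2 difference was 1.1 ± 0.23 against nt (adjusted p = 0.0019), 0.56 ± 0.21 against Mock (0.195) and 0.86 ± 0.15 against the other siRNA conditions (3.24e-05). Without replicate 1, in which siTdrd7 was highest, its adjusted p was 0.8 against nt and 0.363 against the other conditions.

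Nfatc3, a calcium-regulated transcription factor (chr8:106058840-106130537), had 0 counts in each siTdrd7 library, 4, 3 and 8 in nt, and 3, 3 and 5 in siTdrd3. With 0 set to 3 counts as for Mpp5, Nfatc3 was 4.43-fold lower in siTdrd7 than in nt (adjusted p = 0.0467). It was 3.86-fold lower than in Mock (0.0342), where counts were 2, 0, 3, 2 and 4. Neither call remained when any replicate was left out (lowest adjusted p 0.279 and 0.087). Wrb, a receptor for tail-anchored membrane proteins, was named here only because it was called. It had 0 counts in siTdrd7, and 17 of its 20 nt counts came from replicate 1, with 0 in nt replicate 2, so that the call rested on that library (adjusted p 0.0442 with it, 0.977 without replicate 1).

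Gm26870 is a noncoding RNA that spans chr9:3000282-3038313 on the minus strand, over a cluster of repeat-rich genes on the other strand, and its reads cannot be assigned between them where the strand was not used in counting. It had 18100, 15800 and 12500 CPM in siTdrd7 and 10400, 7750 and 8370 in nt (0.81 ± 0.19, adjusted p = 0.0124; 0.309 without replicate 2), and 9420 to 16300 in Mock (0.37 ± 0.17, 0.334). Gm10722, a gene on the other strand of that cluster, was chosen after its values were seen. It was lower than in Mock by -1.48 in siTdrd7 and by -1.9 in siTdrd3, both called. Both calls were lost without replicate 3 (adjusted p = 0.258 and 0.1), and Gm10722 was called in neither pool against nt.

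The other calls of siTdrd7 concerned a mitochondrial gene and its copy, which were also called in siTdrd3 against the same nt libraries. mt-Co3, a mitochondrially encoded subunit of cytochrome oxidase, had 19400, 19100 and 17600 CPM in siTdrd3, 18400, 19200 and 18800 in siTdrd7 and 14000, 11000 and 11600 in nt. Both siRNA groups lay above all nt libraries, by 0.62 ± 0.12 (adjusted p = 0.00054) and 0.63 ± 0.12 (0.00119). Both calls were lost without replicate 2 (adjusted p = 0.288 and 0.342) and without replicate 3 (0.0516 and 0.106). Mock, at 14600 to 22500 CPM, was also above nt (0.56 ± 0.11, 0.000831), and the differences from Mock were 0.06 and 0.08 (adjusted p = 0.95 and 0.87). Gm28437, a nuclear copy on chromosome 1 whose 3′ end is fully contained in mt-Co3, had 11000 to 15100 CPM in nt and 17400 to 20000 in the 6 siRNA libraries, and reads of the pair cannot be told apart.

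With siTdrd3 and siTdrd7 combined against nt, 6 genes were called, 2 higher and 4 lower, which was 0.199% of the genes tested. The higher genes were mt-Co3 (0.63 ± 0.11, adjusted p = 0.00012) and Gm28437 (0.6 ± 0.11, 0.000235). The lower genes were Gm5611 (-0.8 ± 0.16, 0.000582), Gm17060 (-0.75 ± 0.15, 0.00158), Gm14776 (-0.65 ± 0.16, 0.0429) and Wrb (-3.68 ± 0.92, 0.0429). Gm14776 and Wrb held their calls in no fit with a replicate left out (adjusted p of 0.172 and 0.12 or more), and Wrb was at -1.62 without replicate 1 (0.905). Without replicate 2 none was called by edgeR, where 207 genes had an unadjusted p under 0.05, and limma on the deposited log2 values also called 0. None of the 6 was called against Mock, where 18 other genes were (0.597%), 3 higher and 15 lower. Against the mean of the other siRNA conditions 34 genes were called (1.13%), with mt-Co3 at 0.31 and Gm28437 at 0.29, while Gm5611, Gm17060 and Gm14776 were at 0.17, 0.17 and 0.14, above rather than below those conditions and not called. None of these 34 calls held whichever replicate was left out, and that of Gm28437 was lost without replicates 2 and 3 (adjusted p = 0.166 and 0.24).

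In siTdrd3 against siTdrd7, 36 genes were called, 22 higher and 14 lower in siTdrd3 (1.19%), and 364 had an unadjusted p under 0.05. Dcn, Sparc, Tcf4 and Fbn1 were among the genes higher in siTdrd3, and Ncl, Serbp1, Malat1 and the Npm1-like pseudogenes were higher in siTdrd7. The count was 20, 11 and 9 without replicate 1, 2 and 3, and 14 of the 36 calls held in none of these fits. The calls of the Npm1-like Gm5611, Gm17060, Gm14776 and Gm14681 held only without replicate 1, with adjusted p of 0.0838 or more otherwise.

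Dcn, the matrix proteoglycan decorin (chr10:97479609-97518143), had 241, 351 and 403 CPM in siTdrd3, 58.6, 128 and 175 in siTdrd7, 416, 239 and 335 in nt and 149 to 634 in Mock. The siTdrd7 libraries lay below all siTdrd3 and nt libraries and overlapped Mock at its lowest library. The difference between the pools was 1.37 ± 0.35 (adjusted p = 0.0142), that of siTdrd7 from nt was -1.31 ± 0.34 (0.0601) and that of siTdrd7 from Mock -1.64 ± 0.33 (0.000835). Leaving out any replicate raised the adjusted p between the pools to 0.0565 or more.

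Sparc, a collagen-binding glycoprotein, had 984, 421 and 723 CPM in siTdrd3 and 371, 419 and 323 in siTdrd7 (0.96 ± 0.24, adjusted p = 0.0142). Replicate 2 of siTdrd3 lay just above the highest siTdrd7 library. Tcf4, a transcription factor of mesenchymal cells, had 446, 369 and 421 CPM in siTdrd3 and 137, 146 and 210 in siTdrd7 (1.23 ± 0.31, 0.0142). Its nt levels of 133, 269 and 212 CPM were near those of siTdrd7, and its difference from nt was 0.98 ± 0.3 in siTdrd3 (0.0802) and -0.25 ± 0.35 in siTdrd7 (0.95). Fbn1, the microfibril protein fibrillin, had 2, 3 and 8 counts in siTdrd3 and 0 in each siTdrd7 library (adjusted p = 0.0364). With 0 set to 3 counts it was 4.34-fold higher in siTdrd3. The calls of Tcf4 and Fbn1 were lost whichever replicate was left out (adjusted p 0.0893 to 0.173 and 0.056 to 0.453), and that of Sparc held only without replicate 2. Spp1, the secreted phosphoprotein osteopontin, had 1150, 966 and 1780 CPM in siTdrd3 and 469, 546 and 917 in siTdrd7 (0.97 ± 0.22, 0.00495; 0.105 without replicate 3). Sparc, Tcf4, Spp1, mt-Atp6 and Amd1 were chosen after their values were seen.

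Ncl was higher in siTdrd7, with 1970, 1990 and 2160 CPM, than in any siTdrd3, nt or Mock library. The difference of siTdrd3 from siTdrd7 was -0.95 ± 0.16 (adjusted p = 3.71e-05), and its call held without each replicate (up to 0.0306), as did those of Gm11956 (1.45 ± 0.19) and of the pseudogene Gm42666 (1.38 ± 0.27). Serbp1 differed by -0.78 ± 0.16 (0.000873) and Malat1 by -0.88 ± 0.19 (0.00248). The siTdrd7 values of Malat1 were 2910, 2370 and 1340 CPM, and the lowest lay above the highest siTdrd3 value of 1250. Psma2 had 137, 219 and 367 CPM in siTdrd7, above all siTdrd3 values (-2.51 ± 0.48, 0.000263). Uqcrh was higher in siTdrd3 by 1.01 ± 0.23 (0.00551), mt-Atp6, a subunit of the mitochondrial ATP synthase, by 0.56 ± 0.13 (0.00551), and mt-Co3 differed by -0.01 ± 0.12 (0.988). The call of Malat1 was lost without replicate 1, those of Serbp1 and Uqcrh without replicate 2 and that of Psma2 without replicate 3, and that of mt-Atp6 held only without replicate 1.

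Low counts limited the rest of the named genes. Nfatc3 had 11 counts in siTdrd3 and 0 in siTdrd7, which gave 3.68-fold with the 0 set to 3 counts. Gm11604 had 13, 8 and 18 counts in siTdrd3 and 3, 1 and 5 in siTdrd7 (2.12 ± 0.51, adjusted p = 0.00981), and Gm44510 had 1, 1 and 4 against 6, 8 and 16 (-2.26 ± 0.64, 0.0402). Anp32a, an acidic nuclear histone chaperone, had 92.8, 211 and 156 CPM in siTdrd3 and 195, 510 and 402 in siTdrd7 (-1.28 ± 0.34, 0.0262), its siTdrd7 mean being the highest of the 33 conditions. Amd1 differed by -1.18 ± 0.29 (0.0109). The calls of Nfatc3, Gm11604, Gm44510 and Anp32a held in no fit with a replicate left out, with lowest adjusted p of 0.158, 0.0826, 0.179 and 0.0755, and that of Amd1 held only without replicate 2.

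**Figure D2:**
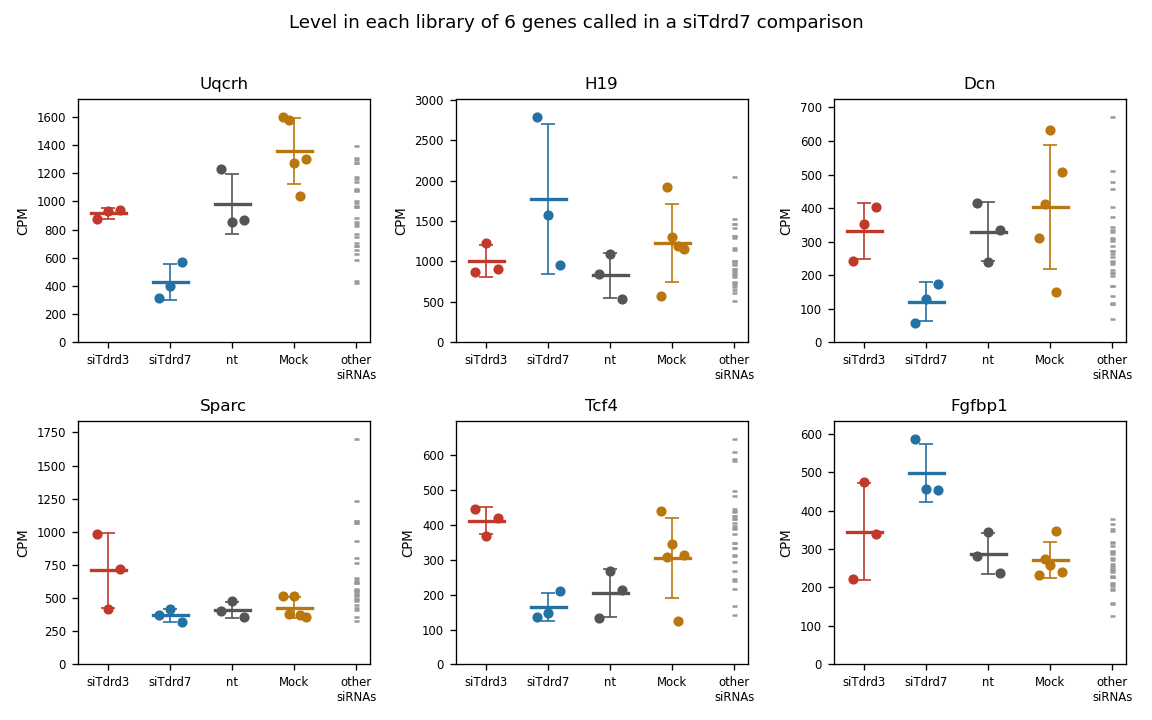
CPM of 6 genes called in a comparison of siTdrd7, as a point for each siTdrd3, siTdrd7, nt and Mock library with the mean (bar) and SD (whiskers), and as a dash for the mean of each of the other 31 siRNA conditions. Uqcrh lies at 312 to 568 CPM in siTdrd7, below all siTdrd3, nt and Mock libraries, and H19 spans 960 to 2790 CPM within siTdrd7.

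In siTdrd3 against Mock 27 genes were called, 5 higher and 22 lower (0.896%), and in siTdrd7 against Mock 44 were called, 11 higher and 33 lower (1.46%). Without replicate 1, 2 and 3 the counts were 12, 6 and 3 for siTdrd3 and 23, 10 and 9 for siTdrd7. The controls Mock and nt differed from each other in 47 genes (1.56%). Of the 22 lower genes in siTdrd3, Gm10801 (-1.35) and Gm21738 (-1.08) were the 2 calls that held without each replicate (adjusted p up to 0.000715 and 0.00746), and 14 of the 27 calls held in none of these. Both genes were higher in Mock than in nt by 1.2 and 1.31, and siTdrd3 differed from nt by -0.15 and 0.23. Gm10800, which shares sequence with Gm10801, mt-Nd4l and its copy Gm10222, and Gm10715, Gm10717, Gm10718, Gm10719, Gm10721, Gm10722 and Gm11168, neighbours on chromosome 9 with shared sequence, were lower as well. Mpp5, Psma2, Malat1 and the Npm1-like Gm5611, Gm17060, Gm14776 and Gm14681 were also called against Mock, each with its call lost without 2 or 3 of the replicates, and Hmox1, the heme-degrading enzyme of the oxidative stress response, was lower by -1.29. Higher genes in siTdrd3 included Gm11956, Gm42666 (0.97 ± 0.26, adjusted p = 0.027) and Cdk4, a kinase of the G1 phase (1.25). The calls of Gm42666, Cdk4 and Hmox1 held in no fit with a replicate left out, with adjusted p of 0.117, 0.225 and 0.158 or more.

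In siTdrd7 the genes lower than in Mock included the matrix genes Dcn, Lum and Fbn1, with Lum, a keratan sulfate proteoglycan, at 195, 255 and 140 CPM against 323 to 836 in Mock (-1.28 ± 0.37, adjusted p = 0.0446). S100a4, a calcium-binding protein of fibroblasts, differed by -1.14 ± 0.29 (0.013) and Timp2, an inhibitor of matrix proteases, by -0.94 ± 0.27 (0.0446). The call of Dcn held whichever replicate was left out, those of Fbn1 and Timp2 held only without replicate 1, and those of Lum and S100a4 were lost in each case (adjusted p of 0.0662 and 0.143 or more). Ncl (0.94 ± 0.15, 5.79e-06), Amd1 (1.25 ± 0.29, 0.00569) and Farsb (1.29 ± 0.35, 0.0251) were higher than in Mock. The call of Ncl held whichever replicate was left out, that of Amd1 only without replicate 2, where its difference was 1.98, and that of Farsb only without replicate 1. The genes named here beyond the lists, such as Gm10801, Gm21738, Hmox1 and Timp2, were chosen after their values were seen. In siTdrd7 against nt none of Dcn, Lum, Fbn1, S100a4, Timp2, Ncl, Amd1 and Farsb was called, and Ncl differed by 0.29 ± 0.15 (0.815).

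Set against the mean of the other 31 siRNA conditions, siTdrd7 differed in 64 genes (2.12%), 45 higher and 19 lower, and siTdrd3 in 27 (0.896%), 24 higher and 3 lower. With RLE scaling in place of TMM the split was 35 higher and 22 lower in siTdrd7, 7 and 3 in siTdrd3, and 12 and 10 rather than 27 and 7 in both together. The count for siTdrd7 was 44, 42 and 10 without replicate 1, 2 and 3, and that for siTdrd3 was 14, 7 and 2. Replicate 3 was the deepest in both pools.

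Prrx1, a mesenchymal homeobox factor, had 117, 182 and 148 CPM against condition means of 80 to 677 (-0.94 ± 0.25, adjusted p = 0.0171), lower in siTdrd7, and its adjusted p was 0.157, 0.0662 and 0.222 without replicate 1, 2 and 3. Tcf4 (-1.04 ± 0.25, 0.00407), Timp2 (-1.01 ± 0.21, 0.000513), Sparc (-0.79 ± 0.19, 0.00407) and the protease inhibitor Serpine2 (-0.9 ± 0.24, 0.0139) were lower as well. Serpine2 had its lowest mean of the 33 conditions in siTdrd7. Ccnd2, cyclin D2, differed by -0.54 ± 0.13 (0.00857). The calls of Timp2 and Sparc were lost without replicate 3, that of Tcf4 held only without replicate 3, and those of Serpine2 and Ccnd2 held only without replicate 2. Against nt none of these 6 genes was called in siTdrd7, with differences of -0.1 to -0.65 and adjusted p of 0.779 or more. The nt libraries themselves were lower than the siRNA conditions in Sparc (-0.63 ± 0.18, 0.0393) and Tcf4 (-0.79 ± 0.23, 0.0478). Timp2, Serpine2, Tcf4 and Slc2a3 were chosen after their values were seen.

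Genes higher in siTdrd7 included L1td1, Apela, Fgfbp1 and Slc2a3. L1td1, an RNA-binding protein of pluripotent cells, had 8, 7 and 19 counts (1.63 ± 0.38, adjusted p = 0.00389), and Apela, a peptide hormone of early embryos, had 8, 8 and 27 (1.28 ± 0.3, 0.00407). Fgfbp1, an epithelial carrier of fibroblast growth factors, had 586, 455 and 454 CPM, the highest mean of the 33 conditions (0.97 ± 0.2, 0.000342), against a mean of at most 379 CPM in the other 31. Slc2a3, a glucose transporter, had 195, 291 and 52.4 CPM (1.93 ± 0.39, 0.000342), with a difference of 2.56 without replicate 3 and of 1.59 without replicate 2, where the call was lost (0.12). The calls of L1td1 and Apela were lost without replicate 3 (0.146 and 0.366), and that of Fgfbp1 held without each replicate. In siTdrd7 against nt none of these 4 was called, with log2 differences of 0.85, 1.35, 0.81 and 1.46 and adjusted p of 0.425 or more.

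Gene lists were compared by counts and medians beside those of all 3013 genes, whose median log2 difference was 0 or 0.01 against nt. Of 28 mesenchymal genes 22 were tested, and none was called in either pool against nt. Their median log2 difference was 0.21 in siTdrd3 and -0.28 in siTdrd7 against nt, with 14 and 6 of 22 above 0, and 0.76 between the pools, with 16 of 22 above 0, where 2 were called (Dcn and Fbn1) and 1.19% of all genes were. Against Mock, 4 of 22 were lower in siTdrd7 (median -0.74), as were 1.1% of all genes, and of these Dcn held its call whichever replicate was left out. Mock itself lay above nt on this list, with a median of 0.3 and 17 of 22 above 0. Against the other siRNA conditions 3 were lower in siTdrd7 (median -0.72, 21 of 22 below 0), as were 0.631% of all genes, and the median of all genes was 0.05. Of these 3, the calls of Prrx1 and Dcn were lost whichever replicate was left out and that of Fbn1 held only without replicate 1. The nt libraries also lay below the siRNA conditions on this list, with a median of -0.36 and 16 of 22 below 0. Summed over the list, siTdrd7 held 2600 to 2770 CPM, siTdrd3 3720 to 4230, nt 3100 to 4150 and Mock 3620 to 5530. The siTdrd7 libraries lay below all libraries of the other 3 groups, and 1 of the other 31 siRNA conditions had a lower mean.

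Of 22 epithelial genes 3 were tested. None was called against nt in either pool, and Fgfbp1 and Apela were higher in siTdrd7 than in the other siRNA conditions, as were 1.49% of all genes, with the call of Apela lost without replicate 3. The list summed to 1410, 1060 and 1040 CPM in siTdrd7, 539 to 808 in siTdrd3, 550 to 688 in nt and 464 to 721 in Mock, and the siTdrd7 mean of 1170 CPM lay above that of every other siRNA condition, the highest of which was 1010. The cell adhesion gene Epcam had 8, 2 and 7 counts in siTdrd7 and 5, 0 and 3 in nt, and Krt8, a keratin of simple epithelia, had 5, 3 and 7 against 3, 1 and 6. Cdh1, E-cadherin, had 2, 5 and 2 against 1, 3 and 0. Most of the sum came from Fgfbp1 and Apela, with means of 498 and 179 CPM in siTdrd7 and 288 and 64.2 in nt. Keratinocyte markers summed to 69.8 to 137 CPM in siTdrd7, 27.5 to 105 in siTdrd3, 0 to 44.9 in nt and 0 to 86.5 in Mock. Their siTdrd7 mean of 93.1 CPM lay above those of the other 31 siRNA conditions. Mock, however, had a higher keratinocyte mean than nt (51.5 against 15 CPM) and a lower epithelial mean (575 against 611). The part of the keratinocyte markers in the epithelial sum was not tested. Of 19 keratinocyte marker counts in siTdrd7, 14 were of Sfn, 2 each of Krt14 and Krt10 and 1 of Dsc3, whereas nt had 3 of Sfn and 0 of the others. The defining markers Krt5 and Trp63 were at 0.

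The pluripotency list was largely below the filter, with 1 of 24 genes tested. Its sum was 346 to 488 CPM in siTdrd7, 123 to 186 in siTdrd3, 229 to 383 in nt and 248 to 412 in Mock. The siTdrd3 libraries lay below all nt and Mock libraries, whereas siTdrd7 overlapped both controls. Of the other 31 siRNA conditions, 13 had a lower mean than siTdrd3, 29 a lower mean than siTdrd7, and 27 a lower mean than nt and than Mock. L1td1 had 3, 1 and 4 counts in siTdrd3 and 3, 9 and 9 in nt (-1.16 ± 0.69, adjusted p = 0.596). Tdgf1, the coreceptor Cripto, had 0, 1 and 3 counts in siTdrd3, 1, 2 and 14 in siTdrd7 and 3, 1 and 3 in nt, and Pou5f1 and Sall4 had 0 counts in siTdrd3. Sall4 had 5, 1 and 1 counts in nt and 2, 0 and 2 in siTdrd7. The sums were not tested.

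Of 30 genes of G2/M and mitosis 20 were tested, and none was called in any comparison of the pools. Their median was -0.32 in siTdrd3 and 0.15 in siTdrd7 against nt, with 15 and 7 of 20 below 0. Against Mock the siTdrd3 median was 0.14, with 12 of 20 above 0, and that of siTdrd7 was 0.52, while Mock differed from nt by a median of -0.51. The list summed to 2880 to 3140 CPM in siTdrd3, 3680 to 4340 in siTdrd7 and 3000 to 3980 in nt. The siTdrd3 range overlapped those of nt and of Mock, at 2590 to 3050, and siTdrd7 lay above siTdrd3 and Mock. Mki67, the proliferation antigen, had 8, 2 and 8 counts in siTdrd3 and 10, 13 and 10 in nt, and Bub1, a mitotic checkpoint kinase that was below the filter, had 1, 1 and 4 against 7, 3 and 10.

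**Figure D3:**
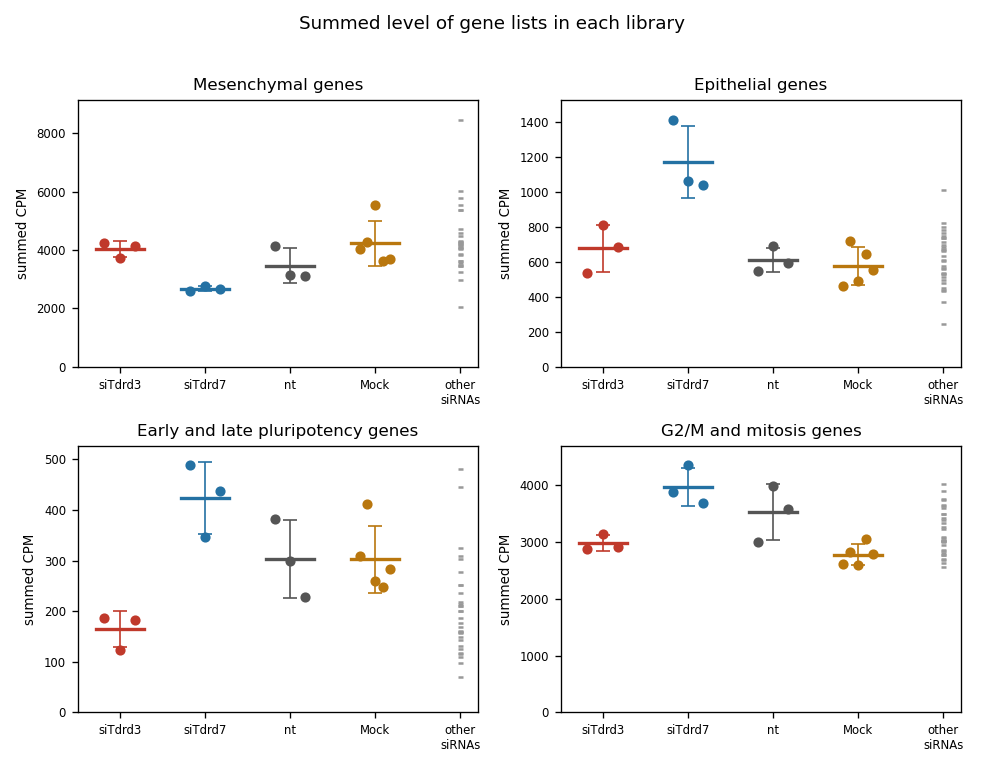
Summed CPM of 4 gene lists as a point for each siTdrd3, siTdrd7, nt and Mock library with the mean (bar) and SD (whiskers), and as a dash for the mean of each of the other 31 siRNA conditions. In siTdrd7 the mesenchymal sum is 2600 to 2770 CPM, below the 3 other groups, and the epithelial sum is 1040 to 1410 CPM, above them.

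Of 32 Tudor domain genes 7 were tested and none was called in any comparison of the pools. Lbr, the lamin B receptor, had 1, 11 and 16 counts in siTdrd3, 12, 10 and 13 in siTdrd7 and 2, 10 and 12 in nt. Snd1, a Tudor nuclease of the RNA silencing complex, had 4, 10 and 7 in siTdrd3, 5, 4 and 8 in siTdrd7 and 6, 4 and 3 in nt. The list medians were 0.31 and 0.52 against nt.

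Among 20 TDRD3 partners and arginine methyltransferases 11 were tested, and Serbp1 was the member called, lower in siTdrd3 against nt, where 0.863% of all genes were called, and against siTdrd7 (1.19%). The median of the list was 0.02 in siTdrd3 and 0.16 in siTdrd7. Its sum was 3600 to 4410 CPM in siTdrd3, 4940 to 6170 in siTdrd7 and 5080 to 5400 in nt, with siTdrd3 below nt and overlapping Mock at 4220 to 4520. Much of the gap between siTdrd3 and nt came from Serbp1, whose levels are given above, and the sum was not tested. Ddx3x, an RNA helicase, had 59, 85 and 124 counts in siTdrd3 and 111, 99 and 177 in nt and was not called. Top3b, the topoisomerase partner, had 1, 1 and 3 counts in siTdrd3 and 2, 1 and 3 in nt, and Fmr1, which encodes FMRP, had 8, 6 and 9 against 1, 1 and 8.

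For TDRD7, 16 of 38 RNA granule genes were tested, and none was called against nt (median -0.18 in siTdrd7 and 0.04 in siTdrd3). Of 13 lens transcripts linked to TDRD7, 3 were tested, Sparc, Hspb1 and Cryab, and none was called against nt (Sparc 0.8 ± 0.23 in siTdrd3, adjusted p = 0.06). Hspb1, a small heat shock protein, had 9, 10 and 7 counts in siTdrd7 and 2, 7 and 12 in nt, and Cryab, a lens crystallin and chaperone, had 2, 0 and 2 against 0, 1 and 4. No gene of the 16 in the piRNA pathway passed the filter, and the list held 2 counts in siTdrd7, 3 in siTdrd3 and 6 in nt. Against nt, none was called in either pool of 9 tested autophagy genes (medians -0.08 in siTdrd3 and -0.02 in siTdrd7), 4 interferon-stimulated genes (0.15 and -0.23) or 11 R-loop and DNA damage genes (0.13 and -0.04). Of 20 tested genes linked to MYC and NRF1, Ncl was called in siTdrd3, where 0.863% of all genes were (medians 0.06 and 0.11).

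Few counts fell on markers of other cell types. Of 12 macrophage markers Lyz2 was tested, with 2 counts in each pool and 5 in nt, and Csf1r, Adgre1 and Ptprc were at 0 in both pools, nt and Mock. None of the 10 endothelial, 12 muscle and 10 keratinocyte markers passed the filter, and Pecam1, Cdh5, Myod1, Krt5 and Trp63 were at 0 in these groups. The markers with most counts in siTdrd3, siTdrd7, nt and Mock were Mylpf of muscle with 7, 14, 10 and 4, Tek of endothelium with 0, 3, 3 and 2, and Sfn of keratinocytes with 9, 14, 3 and 7. The muscle markers summed to a mean of 93.6 CPM in siTdrd7, above 29 of the other 31 siRNA conditions, and of 49.2 in siTdrd3 and nt and 42.1 in Mock. The part of these markers in the list changes of siTdrd7 was not tested. Of 12 neural and glial markers, Tubb3 and Stmn2 were tested and not called, with 13 and 22 counts in siTdrd3, 18 and 25 in siTdrd7 and 24 and 19 in nt.

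In the untransfected time course, between Day00 and Day06, 321 genes rose and 347 fell, together 22.2% of the genes tested. The median log2 difference from nt of the rising genes was 0.12 in siTdrd3 and -0.01 in siTdrd7, and that of the falling genes was 0.05 and -0.01. Of the 237 genes that differed between Day06 and Day05 (7.87%), the 100 higher had medians of 0.08 and -0.01 and the 137 lower 0.05 and -0.03.

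Within the screen, against nt, siTdrd7 had 7 called genes, the 3rd fewest of 33 siRNA conditions, and siTdrd3 had 26, the 14th fewest, with a range of 4 to 821 and a median of 31. All these comparisons share the nt libraries. Neither target could be checked at this depth.

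**Figure D4:**
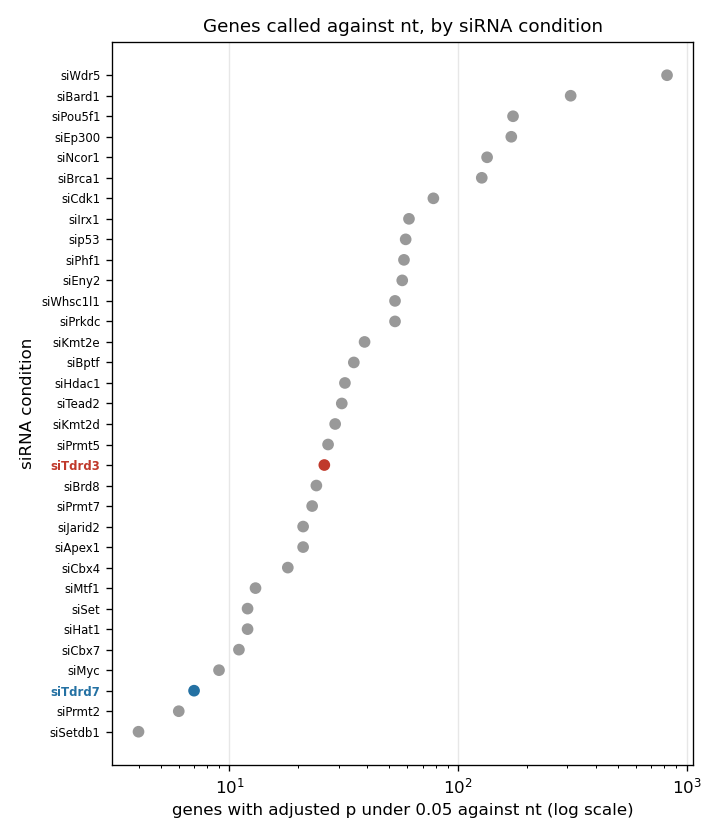
Number of genes with an adjusted p under 0.05 against nt (log axis) for each of the 33 siRNA conditions, ordered by that number, with a point for each condition. siTdrd7 (7 genes) is the 3rd from the lowest and siTdrd3 (26 genes) the 14th.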

How the data were processed

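CEL-Seq2 libraries were sequenced as 3 pools, a pool for each replicate, which are the 3 samples of the series. The name of its column gave each library's condition. The authors' methods name Bowtie2 and mm10 for mapping, the CEL-Seq2 pipeline for UMI correction and GENCODE vM13 for genes. The deposited counts are unnormalized UMI counts per gene. The deposited log2 values are log2 CPM that the authors normalized and corrected for batch by regression. They served in an alternative only. Whether counting used strand was not given in the sources used here. Of 129 count columns 127 were used, and 2 columns without a normalized counterpart were not used. Total counts ran from 29656 to 235292.

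The main test was edgeR 4.0.16 (R 4.3.3), a quasi-likelihood F test of a model with condition and a replicate block, with TMM factors and a low-count filter (filterByExpr on condition), over all 127 libraries (3013 genes, 83 residual degrees of freedom, common dispersion 0.0158). P-values were adjusted by Benjamini-Hochberg over all 3013 genes, and SEs derive from the test statistic. The replicate number marks the shared pool. Deviations from condition means had a median correlation of 0.106 over 9 pairs with the same number (0.0502 to 0.293) and of -0.103 over 18 pairs with different numbers. Replicates differed beyond sampling noise (chi-square per degree of freedom 1.35 to 2.78).

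Alternatives used RLE scaling, DESeq2 1.42.0, limma 3.58.1, other filters, other controls, fewer libraries, no block and each replicate left out. Target counts were compared by an exact conditional binomial test, two-sided. On simulated data for siTdrd3 against nt (3013 genes), the test recovered 30 of 100 genes changed 2-fold and 79 of 100 changed 4-fold, and it also called 8 unchanged genes. The simulation gave every gene the same dispersion and held no replicate effect, so these recoveries need not hold for the real libraries. Positions, 3′ UTRs and shared 31-base stretches came from GENCODE vM21 on GRCm38, the mm10 assembly.

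The genes to name were up to 10 in each direction (5 between the pools) with the largest change among called genes of at least 50 CPM with the same sign in each replicate, plus members of 18 gene lists. The genes described and the lists were chosen with earlier results of these data known. The 2 Mock columns of a replicate share a name, and for replicate 3 the Mock library kept in the log2 table was matched to its count column by correlation. A called gene of siTdrd3 against nt is not reported here.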

Additional observations from a re-analysis of the deposited data

Results flagged for a closer look

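Amd2 was high in 1 of the 5 Mock libraries, at 496 CPM, with the next at 179 CPM. The gap to the nearest library was 0.864 of the whole range, above the critical value of 0.71 for 5 libraries, a limit that chance passes in about 1 of 20 groups, and 49 groups were examined. Amd2 differed by -0.32 between siTdrd3 and Mock and by 0.7 between siTdrd7 and Mock and was called in neither.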

How the results depend on the processing

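Every called gene of the 4 comparisons of siTdrd3, siTdrd7 and both against nt and of siTdrd3 against siTdrd7 kept its direction under RLE scaling, DESeq2, other filters, no block and leaving out a replicate, wherever it was tested. Calls were less stable. Of 75 called results, 74 kept their call with RLE scaling, 61 with DESeq2, 1 with limma, and 43, 18 and 24 without replicate 1, 2 and 3.

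For siTdrd3 against nt the count was 10 with no filter, 14 with nt and Mock together, 61 with only the libraries compared, 0 with limma (506 genes at an unadjusted p under 0.05) and 9 to 20 without 1 replicate, against 26. For siTdrd7 (7) it was 21 with only the libraries compared, 0 with limma (454 unadjusted), 44 against Mock, 64 against the other siRNA conditions and 1 to 4 without 1 replicate. For both together (6) these were 21, 0 (387 unadjusted), 18, 34 and 0 to 4. Between the pools (36) the count was 19 with no filter, 103 with only the libraries compared, 1 with limma and 9 to 20 without 1 replicate.

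Without the replicate block the counts were 5 for siTdrd3, 2 for siTdrd7, 2 for both and 9 between the pools. Against Mock they were 4, 4 and 7, and against the other siRNA conditions 5, 23 and 10. The cause was not tested. Leaving out a replicate gave 3 to 12, 9 to 23 and 7 to 14 against Mock and 2 to 14, 10 to 44 and 0 to 28 against the other conditions, and RLE scaling gave 10 for siTdrd3 and 22 for both there. These settings for Mock and the other conditions were chosen after seeing the data.

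The ratio of Tdrd3 to nt was 0 to 1.09 without 1 replicate. With Mock in place of nt, Farsb (0.15), Gm13408 (-0.27) and Gm5586 (-0.13) in siTdrd3 changed sign. With the other conditions in place of nt, Gm5611 (0.17), Gm17060 (0.17) and Gm14776 (0.14) did so for both pools together. Depth limits genes of few counts, and changes of about 2-fold were mostly missed in the simulation.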
